A study of Mus musculus with 19 samples.

Results

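The testis library was compared with libraries of 12 other tissues to find the transcripts that mouse testis holds and the other organs do not. The comparison used the testis column of a table of 13 tissues, which is 1 of the 19 libraries of the series, and every gene at 1 FPKM or more in testis, where FPKM is the number of fragments for each kilobase of a transcript in 1000000 assigned reads. Such genes numbered 17940 of 54532 gene rows. A gene was called testis-enriched when its testis FPKM, with 0.1 added, was at least 4 times that of the highest other tissue, and 4467 genes passed. The series set out to find kidney-specific genes by sequencing total RNA of tissues from C57BL/6J mice, labelled as males 8 weeks old on a chow diet, with no genetic change or treatment named. The 12 other tissues of the table were aorta, eye, heart, kidney, liver, parathyroid, stomach, thymus, white adipose tissue (WAT, labelled epididymal fat), brain, colon and skeletal muscle. The libraries of spleen, lung, skin, bone, intestine and brown adipose tissue (BAT) came as read counts and were brought to the same scale for checks. Elsewhere means the 12 other tissues of the table unless the 6 further libraries are named.

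The seminiferous tubules of the adult testis hold germ cells from stem cell to spermatozoon, nursed by Sertoli cells, and Leydig cells between the tubules make androgen. Spermatogonia divide, spermatocytes pair and recombine their chromosomes in meiosis, and haploid spermatids repack the nucleus with basic proteins while they build the acrosome and the tail. The X and Y chromosomes are silenced together in spermatocytes, a process known as meiotic sex chromosome inactivation, and many X-linked genes for basic functions have an autosomal copy, often made by retroposition, that is used in the male germline.

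Each tissue was 1 library, so values have no replicate error and no test was made. The testis library held 16928668 reads assigned to genes, and all 19 libraries lay between 11135276 and 17263334. Intervals of folds are 95% exact binomial intervals on reads recovered from the FPKM and cover counting error only. A fold against 0 reads is given as a lower bound with 3 reads in place of 0. In whole tissue, fewer cells of a type and less RNA per cell cannot be told apart. The libraries labelled kidney and eye went against the label male by their Y-linked transcripts, with Eif2s3y at 0.140 and 0.0472 FPKM, where the median of the 12 tissues was 49.9 FPKM.

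The label of the testis library fitted its markers. The protamine gene Prm1 was at 5185 FPKM, the transition protein gene Tnp1 at 5774, the outer dense fiber gene Odf1 at 1305, the acrosomal gene Acrv1 at 84.3, the germ cell helicase gene Ddx4 at 178 and the Leydig cell hormone gene Insl3 at 311 FPKM. All 6 were highest in testis of the 19 libraries. Most markers of other cells and tissues were low. The 15 epididymis genes summed to 48.0 FPKM in testis, of which Crisp1 gave 30.1, and to 20636 FPKM in WAT. Of 8 endothelial genes, 8 macrophage genes and 5 blood genes, none was highest in testis. Their sums in testis were 30.1, 53.7 and 42.3 FPKM, each below the lowest of the 12 other tissues, and 5 of the 15 epididymis genes had no read in testis. The 8 smooth muscle genes, which peritubular myoid cells share, were also higher elsewhere. Their sum in testis was 335 FPKM, of which the gamma actin gene Actg2 gave 260, while Acta2 was at 19.9 and Myh11 at 6.22 FPKM.

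Testis had more enriched genes than any other tissue of the table. Its 4467 enriched genes were 24.9% of those at 1 FPKM or more, and the next tissues were brain with 681 and eye with 665. The fewest were in parathyroid, with 79. Testis also had the most genes at 1 FPKM or more, and eye came next with 17139. Counting all gene rows, 8.19% were testis-enriched. The enriched genes took 39.8% of the testis reads. No small set of genes led the library, since its 10 most abundant genes took 3.27% of reads, the lowest share of the 13 tissues.

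**Figure D1:**
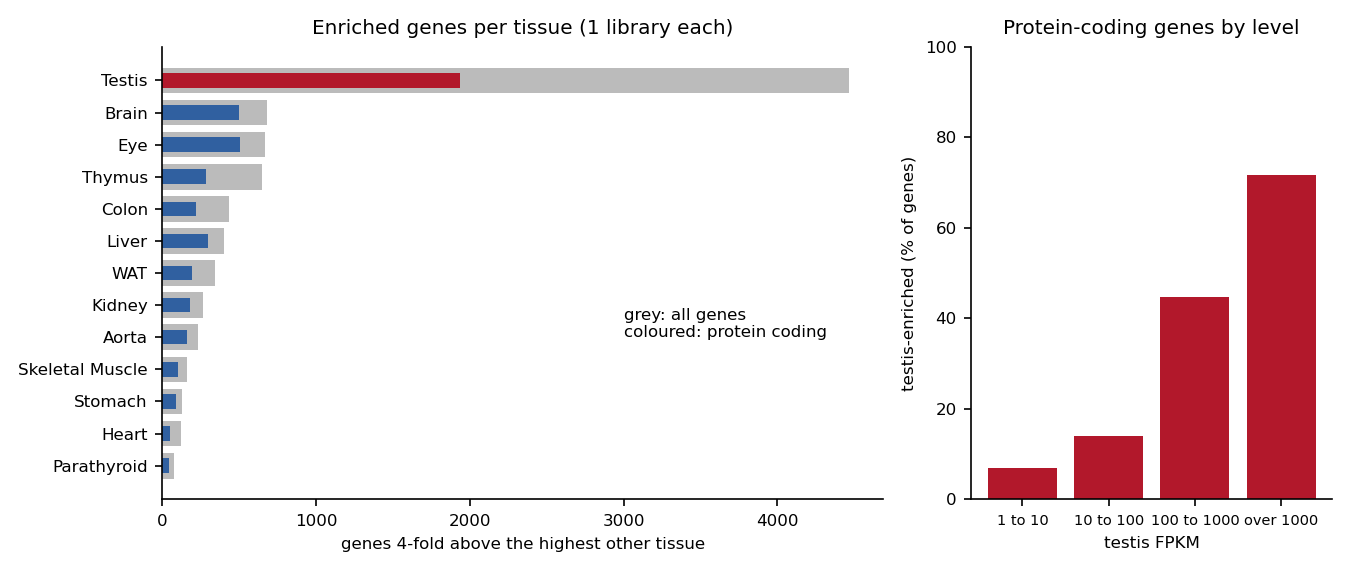
Left, number of genes 4-fold above the highest other tissue in each of the 13 libraries, for all genes (grey) and protein-coding genes (coloured). Right, percent of protein-coding genes that were testis-enriched, by testis FPKM: the share went from 6.77% at 1 to 10 FPKM to 71.8% at 1000 FPKM or more.

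The enrichment was often close to complete. The median ratio to the highest other tissue was 25.2, and 749 genes were above 100. In 3243 genes every other tissue was below 1 FPKM, and 1156 had no read in any of the 12 other libraries. Both counts take in genes low in testis, since 2331 of the 4467 enriched genes were at 10 FPKM or more there. Near the lower limit of 1 FPKM the rule itself requires less than 1 FPKM elsewhere. An absence of reads elsewhere can then rest on few testis reads, as for Gm5169 with 14 reads at 1.08 FPKM. Across all 17940 genes the median log2 ratio to the highest other tissue was -0.89, so most genes were not highest in testis; 7013 (39.1%) were. A second measure, tau on log2(FPKM + 1) of 0.9 or more with testis highest, called 3960 genes (22.1%), of which 3725 were also testis-enriched. With the 6 further tissues, 4215 genes (23.5%) passed, and lung took the most of the 252 lost, with 69.

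Of the enriched genes 1935 were protein coding, 14.3% of the 13556 that testis held at 1 FPKM or more. Among 1478 lincRNAs at that level, 1112 (75.2%) were enriched, and among 1071 genes annotated as antisense, 503 (47.0%). Of 511 processed pseudogenes at that level 297 (58.1%) were enriched. Many such genes carry names of RIKEN cDNA clones. Of 1134 genes at 1 FPKM or more named for clone series that come largely from testis libraries, 946 (83.4%) were enriched, against 67 of 464 (14.4%) with other RIKEN names. The clone series give no independent evidence, since those genes were found in testis. Strandedness is not given in the sources used here, and 77.3% of the enriched antisense genes overlapped a gene of the opposite strand at 1 FPKM or more. The antisense gene 1700027A15Rik stood highest of the noncoding genes at 1569 FPKM, against 28.2 in WAT, but it spans Tnp1 on the opposite strand, so their reads cannot be told apart. The annotated microRNA gene Gm22721 (552 FPKM) overlaps Mex3d (403 FPKM) on the opposite strand in the same way. The lincRNA Rbakdn was at 947 FPKM and 5.99 in WAT, its highest other tissue. The lincRNA 4930571K23Rik was at 391 FPKM and 19.5 in WAT, and the pseudogenes 1700019M22Rik and BC106175 were at 864 and 640 FPKM. None of these last 4 genes overlapped another row of the deposited table. How reads shared by a pseudogene and its parent gene were counted is not given in the sources used here. The levels and enriched share of pseudogenes are therefore uncertain.

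The gene lists are read against the 14.3% of protein-coding genes that were enriched and the median log2 ratio to the highest other tissue of -0.89 over all 17940 genes. The sets are not alike. Both of these values use genes at 1 FPKM or more, and the median also takes in noncoding genes. List values run over all members, also those below 1 FPKM. The median log2 ratio was 6.78 for acrosome genes, 6.18 for regulators of transcription and RNA, 6.17 for sperm channels, 5.79 for tail structure and 4.77 for spermatid chromatin. It was 4.38 for axoneme genes shared with cilia, 3.66 for the piRNA pathway and 3.40 for meiotic genes. Spermatogonial genes were lowest of the germ cell lists at -0.74. Among somatic cells the median was 3.11 for Leydig and 0.97 for Sertoli cell genes. It was -8.47 for the smooth muscle genes that peritubular myoid cells share, -4.36 for endothelial and -3.31 for macrophage genes. The differences between lists were not tested.

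The highest transcripts of the enriched set encoded the proteins that replace histones. Spermatids first exchange histones for transition proteins and then for protamines, arginine-rich proteins that pack the sperm genome. Prm2 was at 8266 FPKM in testis, and at 0 to 224 FPKM (median 0.258) in the 12 other tissues. Tnp2 was at 6363 against 0 to 42.7 (median 0.290), Tnp1 at 5774 against 0 to 35.7 (median 0.450), and Prm1 at 5185 against 0 to 46.2 (median 0.135). The highest other tissue was WAT for each of these 4 genes, and thymus was next at 2.32 to 3.75 FPKM. The fold over WAT was 37.0 for Prm2 (interval 35.5 to 38.5) and 162 for Tnp1 (143 to 183). Prm1, Prm2, Prm3 and Tnp2 lie in a row on chromosome 16 of GRCm38, from the start of Tnp2 at 10787936 to the end of Prm1 at 10805839, all on the minus strand. Prm3 was lower than its neighbours, at 374 FPKM.

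The coding sequences of Prm1 and Tnp1 show what the basic proteins have in common, and their arginine codons are in capitals. They are read from the GENCODE M21 transcripts, 5′ to 3′, on the minus strand of chromosomes 16 and 1.
Prm1: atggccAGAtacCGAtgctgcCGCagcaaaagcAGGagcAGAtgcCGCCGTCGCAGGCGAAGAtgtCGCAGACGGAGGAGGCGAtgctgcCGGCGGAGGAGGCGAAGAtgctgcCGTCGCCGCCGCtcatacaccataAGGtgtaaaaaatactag
Tnp1: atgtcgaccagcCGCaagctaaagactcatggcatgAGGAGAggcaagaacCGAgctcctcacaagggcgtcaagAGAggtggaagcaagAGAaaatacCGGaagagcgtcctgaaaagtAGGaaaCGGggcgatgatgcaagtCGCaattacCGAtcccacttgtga
In Prm1 28 of 51 codons (54.9%) read arginine and 9 cysteine. Tnp1 has 11 arginine and 10 lysine codons of 55, and no cysteine codon. Prm2 has 38 arginine codons of 107 (35.5%), and Tnp2 has 16 of 117 (13.7%).

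Of the 18 genes of spermatid chromatin 15 were enriched. The linker histone genes Hils1 and H1fnt, which act in spermatids, were at 556 and 469 FPKM, against at most 1.51 and 2.22 elsewhere. The histone variant gene H2al2a was at 222 FPKM, and the kinase gene Tssk6, needed for the exchange of histones, at 327. Brdt, whose bromodomain protein binds acetylated histones, was at 133 FPKM with thymus next at 11 FPKM. The testis histone genes passed the rule at low levels, with Hist1h1t at 2.33, Hist1h2aa at 6.06 and Hist1h2ba at 4.92 FPKM. Ctcfl was at 0.943 FPKM, and H2afb2 and Hist3h2ba were listed at 0. The 18 genes summed to 27784 FPKM in testis, to 381 in WAT and to 74.3 in brain, the next tissue.

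All 27 genes of sperm tail structure were enriched. Smcp, whose product lies in the mitochondrial sheath, was at 2526 FPKM, and Odf2, an outer dense fiber gene, at 2196. Meig1, needed to form the manchette of elongating spermatids, was at 2207 FPKM against at most 12.6 in the 12 tissues. Akap4, an X-linked gene of the fibrous sheath, was at 560 FPKM against at most 4.72. Gapdhs, the glycolytic enzyme of the sheath, was at 1363 FPKM. The tektin genes, which build filaments of the axoneme, ranged from 99.5 for Tekt3 to 393 for Tekt2. Cfap43 and Cfap44, genes of the axoneme, left the enriched set when lung entered the comparison. Cfap43 was at 189 FPKM in testis and 49.7 in lung, and Cfap44 at 43.0 and 22.6.

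**Figure D2:**
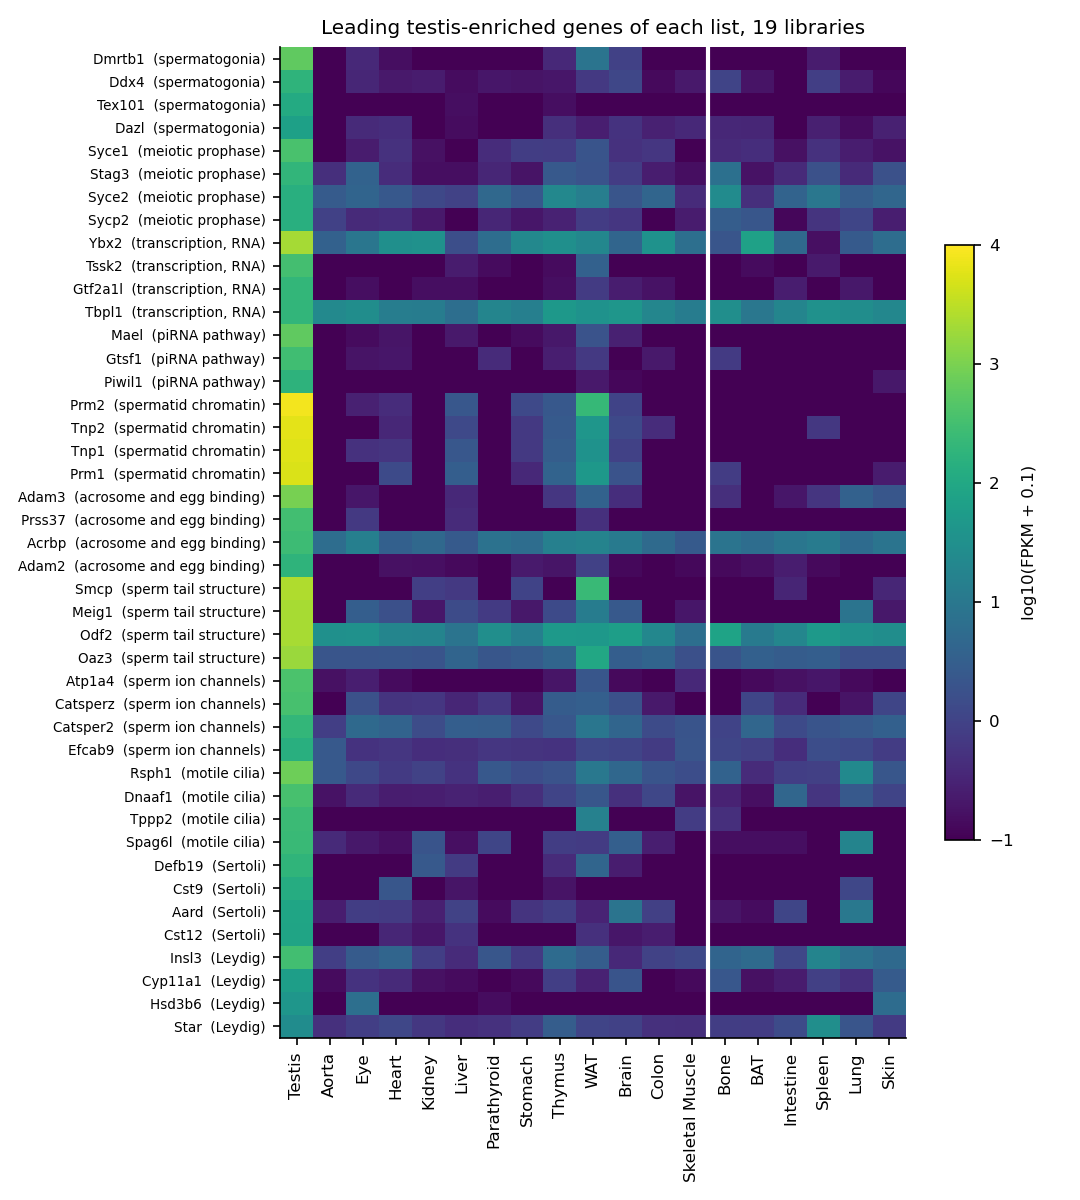
Level as log10(FPKM + 0.1) in all 19 libraries of the 4 testis-enriched genes with the highest testis FPKM in each list (Ddx4, in 2 lists, drawn once). The first column is testis, and the 6 libraries right of the white line came as counts; Prm2, Smcp and Oaz3 stand out in WAT, and Star in spleen.

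Genes of the acrosome, the cap of enzymes that opens the way to the egg, were enriched in 27 of 31 cases. Adam3, needed for sperm to migrate to the egg, was at 929 FPKM against at most 3.70. Izumo1, the sperm partner in fusion with the egg, was at 47.0 FPKM against at most 0.329. Acr, the acrosomal protease, was at 180 FPKM and Spam1, the sperm hyaluronidase, at 35.8. The 4 exceptions were Izumo4 (132 FPKM, WAT 60.6), Spaca6 (71.7, aorta 85.7), Pick1 (21, brain 17.4) and Gopc (8.37, kidney 14.8). Channels of the sperm tail were enriched in 18 of 20 cases. Catsper1, the pore of the calcium channel that drives hyperactivated swimming, was at 72.5 FPKM, with 2531 reads in testis and at most 0.144 FPKM elsewhere. All 10 genes of the list with Catsper names were enriched, from 18.5 FPKM for Catspere1 to 358 for Catsperz. The proton channel gene Hvcn1 was at 2.81 FPKM, below thymus at 26.1.

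The axoneme genes that sperm tails share with motile cilia divided. Of 28 genes 20 were enriched. Rsph1, a radial spoke gene, was at 780 FPKM in testis and at most 23.6 in the 18 other libraries, where lung was highest. The dynein heavy chain genes Dnah8 (66.6 FPKM), Dnah17 (58.1), Dnah2 (42.7) and Dnah1 (23.2) were at most 4.28 FPKM in the 12 tissues. Dnah5, Dnah9 and Dnah11 were at 0.332, 2.15 and 0.259 FPKM in testis, and at 4.05, 8.23 and 5.77 in lung, whose airways carry motile cilia. Of the radial spoke head genes, Rsph6a was at 182 FPKM in testis, while Rsph4a was at 0.129 in testis and 6.85 in lung. Foxj1, the master transcription factor gene of motile cilia, was at 33.4 FPKM in testis and 24.0 in lung.

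Meiotic genes were enriched in 17 of 25 cases. The synaptonemal complex genes Syce1, Sycp2 and Sycp3 were at 368, 141 and 116 FPKM. Spo11, which breaks DNA to start recombination, was at 37.5 FPKM in testis and 126 in thymus, and Prdm9, which places the breaks, was at 5.76 in testis and 20.4 in stomach. Of 21 genes of the piRNA pathway, which silences transposons and clears transcripts through small RNAs, 15 were enriched. Piwil1, the Piwi protein gene of spermatocytes and spermatids, was at 168 FPKM with 8260 reads, against 6 reads in WAT, a fold of 1372 (interval 630 to 3740). Piwil2 was at 67.6 FPKM with WAT next, and Piwil4, known from fetal germ cells, at 0.138. Tdrd5 was higher in thymus (53.2 FPKM) than in testis (43.4), and Tdrd7 was nearly as high in eye (133) as in testis (154).

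Genes listed for transcription and RNA control in the germline were enriched in 22 of 27 cases. Ybx2, which binds and stores mRNA in germ cells, was at 2166 FPKM against at most 35.1 in the 12 tissues and 72.5 in BAT. Rfx2, a regulator of ciliary and spermatid genes, was at 183 FPKM with aorta next at 18.1. Crem, which activates spermatid genes, was at 152 with parathyroid next at 21.5, and Mybl1, a regulator in spermatocytes, at 32.0 with thymus at 6.82. Mybl1 left the set with spleen, where it was at 12.8 FPKM. Sox30, Tcfl5 and the TFIIA-like gene Gtf2a1l were at 88.3, 192 and 208 FPKM, and each was below 1 FPKM in all 12 tissues. Pabpc1, a poly(A)-binding protein gene used in all cells, entered the set narrowly at 2624 FPKM, 4.25-fold above colon (interval 4.15 to 4.36), and left it with bone at 1026.

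Of 20 genes of spermatogonia 9 were enriched, and several genes of undifferentiated cells were low. Zbtb16, Gfra1 and Ret, known from stem cells, were at 1.15, 2.04 and 0.368 FPKM, and each was above 18 FPKM in some other tissue. Nanos2 was listed at 0. Genes found through several stages were higher, with Dmrtb1 at 589, Ddx4 at 178 and Dazl, an RNA-binding protein gene, at 70.5 FPKM. Stra8, which starts meiosis on retinoic acid, was at 10.7 FPKM against at most 0.533.

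Genes of Sertoli and Leydig cells were enriched in part. Of 27 Sertoli cell genes 10 were enriched, led by the beta-defensin gene Defb19 (190 FPKM) and the cystatin genes Cst9 (127) and Cst12 (83.0). Genes used in many organs were not, as in Sox9 (3.71 FPKM, parathyroid 37.6), Clu (786, WAT 2125) and Trf (1.70, liver 432). Amh, a product of immature Sertoli cells, was at 1.66 FPKM, and Fshr, the receptor for follicle-stimulating hormone, at 0.739. Of 19 Leydig cell genes 11 were enriched, 9 of them with the 6 further tissues and 7 at 10-fold. Insl3 was at 311 FPKM against 0.284 to 5.59 (median 0.996), a fold of 55.7 (interval 42.9 to 73.5). The steroid enzyme genes Cyp11a1, Hsd3b6, Hsd3b1 and Hsd17b3 were at 63.7, 42.9, 25.0 and 22.1 FPKM, all at most 6.62 in the 12 tissues. Cyp17a1, another enzyme gene of androgen synthesis, was at 228 FPKM in testis and 170 in WAT, with at most 7.13 in the other 11. Star, which brings cholesterol into the mitochondrion, was at 27.3 FPKM in testis and 29.8 in spleen, and Nr5a1, the steroidogenic factor gene, at 12 and 6.63. The spleen library also had Insl3 at 18 and Cyp21a1, an adrenal enzyme gene, at 4.18 FPKM, and in testis Cyp21a1 was at 2.08 while Cyp11b1 and Mc2r of the adrenal cortex were listed at 0. What these values owe to other cells was not tested. The Leydig list held Rlf, once an alias of Insl3 and here another gene (7.06 FPKM, thymus 15.1).

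**Figure D3:**
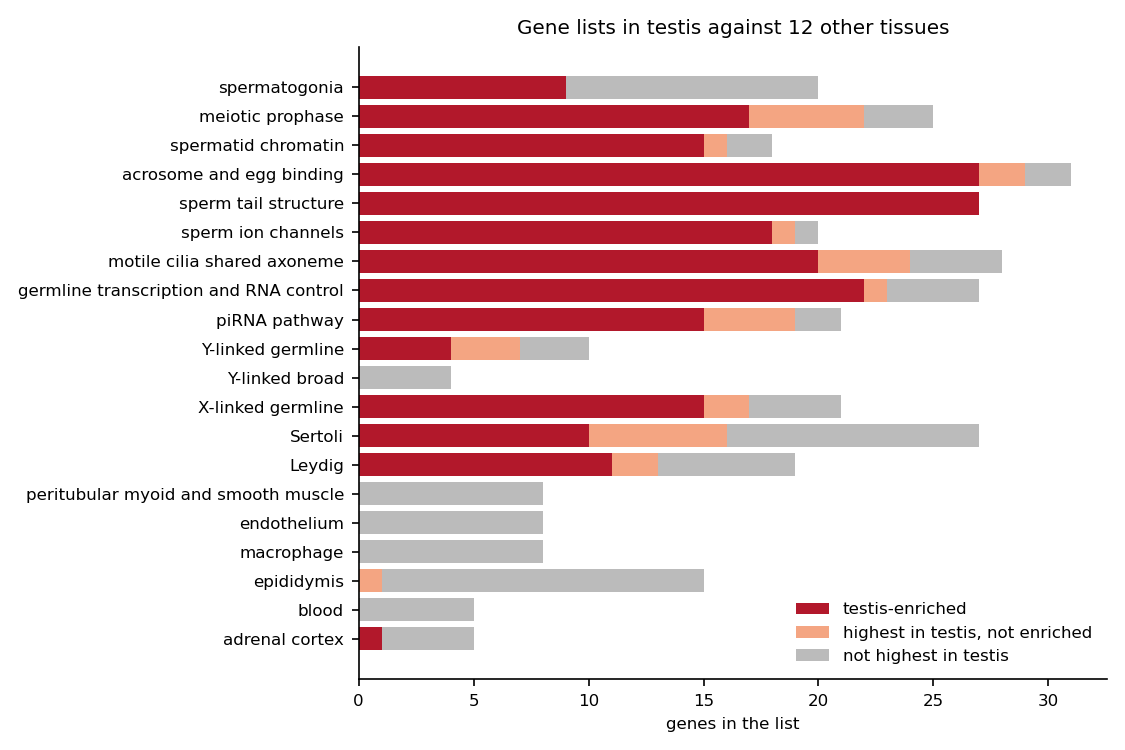
Number of genes in each of 20 lists that were testis-enriched, highest in testis of the 13 tissues without passing the rule, or higher elsewhere. All 27 genes of sperm tail structure were enriched and none of the endothelial, macrophage, blood and epididymis lists.

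The genes with the largest ratios were expressed in testis and almost nowhere else. Among protein-coding genes at 10 FPKM or more, Cypt3 on the X (109 FPKM), the cystatin gene Cst13 (104), Mbd3l1 (97.3) and Gm26661 (77.3) had no read in the 12 other tissues. Cypt3 was at least 269-fold higher in testis than in any of them. Tex101, a germ cell surface protein gene, had 2226 reads in testis and 1 in liver, a fold of 2044 with an interval of 366 to 80764. Sun5, which anchors the sperm head to the tail, had 1436 reads and 1 in WAT (fold 1431, interval 256 to 56565). Tex33 was at 449 FPKM and Ccer1 at 283, with 10 and 12 reads in WAT. At the limit of 4 the values ran close together. Zfp821 (51.2 FPKM, brain 12.7, ratio 4.002), Aste1 (4.01) and Skp2 (4.02) were just inside, and Samd4b (127 FPKM, aorta 31.8, ratio 3.99), Bcap29 (3.99) and Kiz (3.98) just outside. Counting error alone spans the limit for them, as for Zfp821 with an interval of 3.65 to 4.45.

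WAT was the tissue where testis transcripts were found most. Of the enriched genes with a read elsewhere, WAT was the highest other tissue for 1276 (38.5%), and brain came next with 435. Among 726 enriched genes at 100 FPKM or more, 545 were at 1 FPKM or more in WAT, against 207 to 346 in the other 17 libraries. The WAT level was a median of 1.10% of the testis level, against 0.0202 to 0.353% in the others. The share was uneven between genes. It was 17.8% for Gstm5, but all 12 other tissues held that gene, with brain at 156 FPKM and a median of 49.7. The share was 9.69% for Smcp, 8.81% for Odf1, 5.49% for Oaz3 and 2.70% for Prm2. It was 0.892% for Prm1, 0.618% for Tnp1, 0.518% for Ldhc, the germ cell lactate dehydrogenase gene, and 0.0729% for Piwil1. The WAT library held the epididymis gene Crisp1 at 11117 FPKM, and the part of epididymal tissue or sperm in these values was not tested. Without WAT the ratio of Smcp to the highest other tissue went from 10.3 to 2442 (stomach 0.935 FPKM), that of Odf1 from 11.3 to 1677 and that of Prm2 from 37.0 to 3414. The number of enriched genes went from 4467 to 4585.

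**Figure D4:**
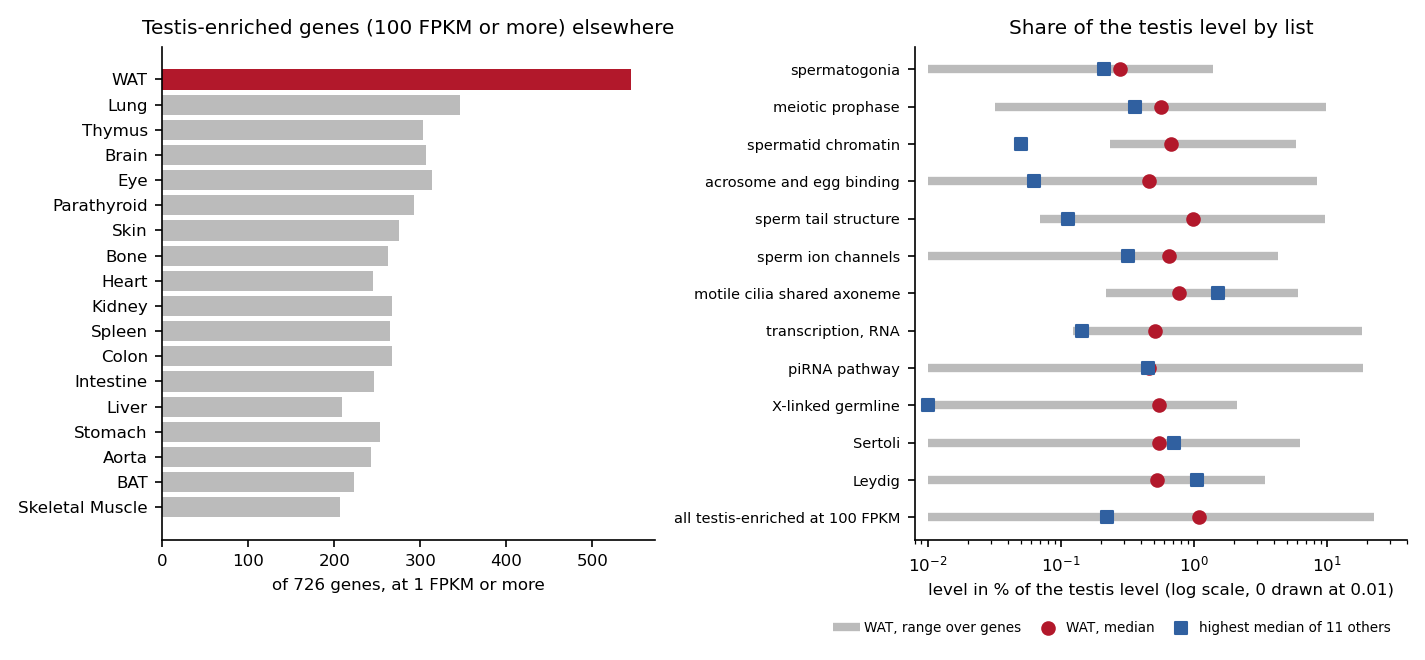
Left, number of the 726 testis-enriched genes at 100 FPKM or more that were at 1 FPKM or more in each other library; WAT had 545. Right, WAT level as percent of the testis level for enriched genes at 10 FPKM or more in each list (dot, median; bar, range) and the highest median among the 11 other tissues (square), which lies above that of WAT for the cilia, Sertoli and Leydig lists.

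Genes on the X chromosome behaved in 2 ways. Of 500 X-linked protein-coding genes at 1 FPKM or more, 157 (31.4%) were enriched, against 13.4% of 12999 autosomal genes and 9.28 to 20.3% on single autosomes. The X held 8.11% of enriched protein-coding genes and 3.69% of those at 1 FPKM or more. By the same rule brain had 7.04 and 3.31% and WAT 5.13 and 3.21%, on 35 and 10 enriched X-linked genes, so a higher share among enriched genes was not seen in testis alone. These testis-enriched X-linked genes were mostly low. Their median was 8.71 FPKM against 68.4 for the enriched autosomal genes, and 7 of 157 (4.46%) reached 100 FPKM against 666 of 1745 (38.2%). The 7, named after their values were seen, were Akap4 (560 FPKM), Cypt1 (176), Tsga8 (154), Gm6760 (124), Hypm (118), Cypt3 (109) and 1700084M14Rik (105). Of a list of 21 X-linked germline genes 15 were enriched, and 9 when the testis level had to reach 5 FPKM. The multicopy genes Slx and Ott were listed at 0, and on the Y Ssty1 and Rbmy were at 0 and Sly had 2 reads. How reads shared among copies were counted is not given in the sources used here, so these levels are uncertain. The Y-linked genes Zfy2, Uba1y and Zfy1 were at 5.03, 4.90 and 2.24 FPKM, with at most 0.145 elsewhere.

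X-linked genes that every tissue used were low in testis. Among genes at 5 FPKM or more in all 12 other tissues, 135 X-linked protein-coding genes had a median log2 of testis over the median of the others of -2.50, and 5373 autosomal genes had -0.48. The difference of -2.02 compares with -0.14 to 0.26 in the 12 other tissues, computed the same way on 89 to 97 X-linked genes. For those tissues the rule also required 5 FPKM or more in testis, which left out X-linked genes below that level in testis. In testis 77.8% of the X-linked genes were at their lowest of the 13 tissues, against 33.3% of autosomal ones. On another scaling of the libraries, by median-of-ratios size factors, the X and autosome medians were -1.92 and -0.01 and differed by -1.91. X-linked genes took 1.15% of the testis reads, against 1.45 to 4.59% in the other tissues. A few broad X-linked genes, named after their values were seen, were not low, as in Prdx4 (133 FPKM, median of the others 28.5) and Cstf2 (33.7 and 14.2).

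**Figure D5:**
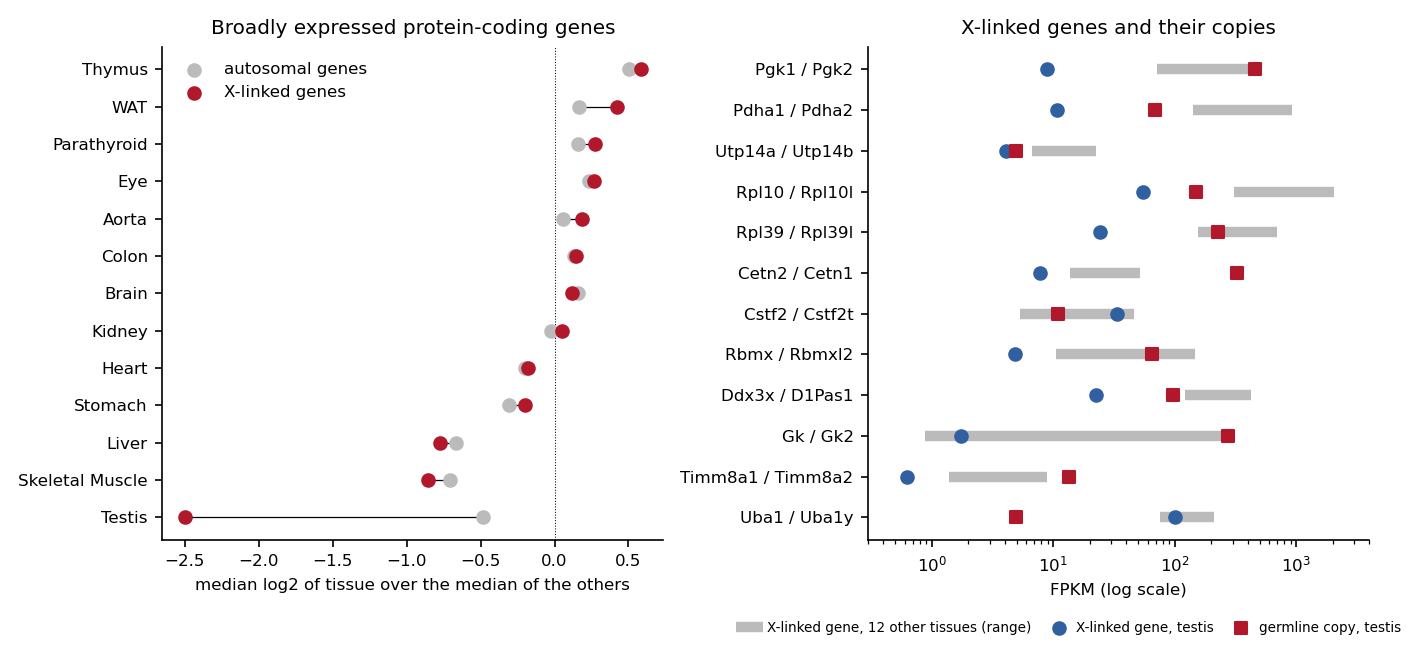
Left, median log2 of each tissue over the median of the 12 others for protein-coding genes that all of those 12 held at 5 FPKM or more, on the X (red) and the autosomes (grey); in testis they are -2.50 and -0.48. Right, FPKM of 12 X-linked genes in testis (blue), their range in 12 other tissues (bar) and their germline copy in testis (square).

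Several X-linked genes have an autosomal copy known to be used in the germline, and 11 such pairs were chosen for that use, so the presence of the copies in testis is a description. Of the 11 X-linked genes 9 were at their lowest of the 13 tissues in testis, near the 77.8% of all broad X-linked genes given above. The copy was testis-enriched for 9 of the 11, where 14.3% of protein-coding genes were, and both held for 8 pairs. Pgk1, a glycolytic enzyme gene, was at 8.90 FPKM in testis and 71.8 to 502 elsewhere, and its single-exon copy Pgk2 on chromosome 17 was at 455 FPKM in testis and at most 10.2 elsewhere. Pdha1, of pyruvate dehydrogenase, was at 10.6 FPKM against 141 to 917, and Pdha2 at 68.9. The ribosomal protein genes Rpl10 and Rpl39 were at 54.5 and 24.2 FPKM, against 305 to 2046 and 155 to 697. Their copies Rpl10l and Rpl39l were at 149 and 226 FPKM in testis, and at most 0.348 and 1.23 elsewhere. The helicase gene Ddx3x was at 22.5 FPKM against 121 to 423, and its copy D1Pas1 at 96.5. The centrin gene Cetn2 was at 7.84 FPKM and Cetn1 at 328. The copies that were not enriched were Utp14b, at 4.96 FPKM in testis and 5.03 in parathyroid while Utp14a was lowest in testis at 4.06, and Cstf2t, at 10.9 FPKM with brain at 22.4. Uba1, whose copy Uba1y is on the Y, was at 102 FPKM in testis, within its range of 76.4 to 212 elsewhere. The glycerol kinase gene Gk was at 1.75 FPKM in testis and 0.888 to 294 elsewhere, with its copy Gk2 at 274. Rbmx and its copy Rbmxl2 were at 4.82 and 64.5 FPKM, and Timm8a1 and Timm8a2 at 0.624 and 13.4. How reads shared by a gene and its copy were counted is not given in the sources used here, so each level of a close pair is uncertain.

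Genes lowest in testis were far fewer than enriched ones. Of 5622 genes at 5 FPKM or more in all 12 other tissues, 204 (3.63%) were at least 4 times lower in testis than in the lowest of them, with 0.1 added. X-linked protein-coding genes gave 30 of these (22.2% of 135), against 3.02% of autosomal genes. The 12 lowest ratios were those of Tmem160, Man1a, Pdha1, Vegfa, Naa10, S100a1, S100a16, Ndufa4, Rps4x, Cox7b, Zfp358 and Efna1. Pdha1, Naa10, Rps4x and Cox7b lie on the X. Cox7b, of respiratory complex IV, was at 15.9 FPKM against 154 to 1017, and Ndufa4, also of the respiratory chain and autosomal, at 17.3 against 170 to 843. Vegfa, the vascular growth factor gene, was at 5.62 FPKM against 66.1 to 1073. Man1a, a mannosidase gene of glycan processing, was at 0.401 FPKM with 19 reads, against 6.80 to 78.6. Mitochondrial genes took 0.788% of the testis reads, the lowest share of the 19 libraries. The 4 Y-linked genes used in many tissues were below thymus, where their sum was highest. Ddx3y was at 4.14 FPKM against 54.9 in thymus, and Kdm5d at 1.57 against 22.8. The 4 genes summed to 45.5 FPKM in testis, against 0.0894 to 217 elsewhere (median 84.7). Ddx3y and Kdm5d gave a small part of that testis sum, so they do not stand for all 4. The count of low genes depended on scaling, with 109 under size factors, of which 86 were shared.

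Some genes were high in testis and 1 other tissue, the partner. Both tissues had to hold the gene at 1 FPKM or more, so high can mean a low level. The lower of the pair had to be at least 4 times the highest remaining tissue of the table. Genes already called testis-enriched were left out. The counts are of the 17940 genes at 1 FPKM or more in testis and were not compared with a background. Brain was the partner for 51 such genes, WAT for 47, eye for 39 and thymus for 31. With brain they included Ccdc92 (445 FPKM in testis, 149 in brain), Trim37 (330 and 129), Chn2 (327 and 310) and C1qtnf4 (171 and 93.7). The genes shared with eye included Rpgrip1, Fam161a and Mak, which act at the photoreceptor cilium. Rpgrip1 was at 231 FPKM in testis and 268 in eye, with 15.0 in the next tissue. Fam161a was at 108 and 85.5, and Mak at 70.3 and 44.3. Osbp2 was at 378 and 121 FPKM. With WAT they included Cyp17a1, Vash2 (62.0 and 20.3), Hoxd3os1 (131 and 53.9) and Glb1l3, which was lower in testis at 33.6 than in WAT at 388.

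The structure and promoters of the enriched genes are described beside those of other genes, with no test. Of the enriched protein-coding genes 9.61% had a single exon in every transcript, against 1.72% of those at 1 FPKM or more that were not enriched. The median of the largest exon number was 6 against 10, and that of the transcript length 1387 against 1764 bases. Both exon measures run over the annotated transcripts of a gene, whose median number was 2 against 5. What this adds to the differences was not tested. In the RefSeq promoters, 250 bases before to 50 after each start, the median GC content was 53.0% against 61.0%. The X-box GTTGCCATG, a site form of the RFX factors, was in 2.40% of 1752 promoters of enriched genes, in 0.636% of 11789 promoters of genes not enriched, and in 0.773% of all 32851 promoters. The MYB site GGCAGTT was in 6.11, 3.55 and 4.12%, and the cAMP response element TGACGTCA in 2.28, 3.05 and 1.79%. The TATA box TATAAA was in 9.25, 7.16 and 13.6%, and the CCAAT box in 39.2, 37.5 and 37.4%. Both strands were searched for these 5 motifs, and none of them contains another. Of the 1935 enriched genes 1455 had a promoter in the RefSeq table. Among 701 promoters of enriched genes at 100 FPKM or more, 2.85% held the X-box and 6.70% the MYB site. None of the 11 promoters of spermatid chromatin genes, nor of the 26 of meiotic genes, held these exact forms of the X-box, the MYB site or the response element in this window. Variant forms of the sites were not searched, so their absence is not shown.

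The promoters of Tcp11, Tex33 and Best1, chosen after their values were seen, show the X-box in place: Tcp11 and Tex33 are among the highest genes that hold it, and Best1 shares its site with a neighbour. They are written on the strand of the gene, 5′ to 3′, with the X-box or its reverse complement in capitals, and lie at chr17:28079715-28080014, chr15:78395863-78396162 and chr19:10001584-10001883 of GRCm38.p6, all on the minus strand.
Tcp11: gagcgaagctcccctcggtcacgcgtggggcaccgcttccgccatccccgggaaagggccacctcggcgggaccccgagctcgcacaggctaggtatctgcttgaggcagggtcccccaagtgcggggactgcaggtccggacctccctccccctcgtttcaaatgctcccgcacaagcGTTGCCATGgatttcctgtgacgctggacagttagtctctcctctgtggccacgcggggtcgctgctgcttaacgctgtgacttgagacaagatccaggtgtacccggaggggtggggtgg
Tex33: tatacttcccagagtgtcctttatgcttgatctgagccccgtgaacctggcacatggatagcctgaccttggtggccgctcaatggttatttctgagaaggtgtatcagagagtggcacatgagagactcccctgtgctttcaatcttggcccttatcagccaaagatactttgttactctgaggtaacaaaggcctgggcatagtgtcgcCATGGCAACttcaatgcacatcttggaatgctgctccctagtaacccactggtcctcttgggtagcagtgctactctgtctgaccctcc
Best1: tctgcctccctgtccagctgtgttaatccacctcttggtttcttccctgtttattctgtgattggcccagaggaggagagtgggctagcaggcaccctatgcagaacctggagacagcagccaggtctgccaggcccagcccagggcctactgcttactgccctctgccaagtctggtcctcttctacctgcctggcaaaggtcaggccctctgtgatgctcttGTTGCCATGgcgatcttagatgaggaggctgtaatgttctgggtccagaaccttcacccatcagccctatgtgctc
Tcp11, a sperm protein gene, was at 1200 FPKM in testis and 22.6 in WAT, and its X-box lies 71 bases before the start of this promoter. Of 3 Tcp11 promoters in the table only this 1 holds the X-box, and of 2 Tex33 promoters only the 1 shown. Tex33 was at 449 FPKM and 0.619 in WAT, with the reverse complement 39 bases before the start. Best1, a chloride channel gene known from the retinal pigment epithelium, was at 211 FPKM in testis and at most 2.34 in the 12 other tissues, and its X-box lies 26 bases before the start. Rab3il1 starts on the opposite strand beside it, so that 1 X-box stands in the Best1 promoter and in 2 of 5 Rab3il1 promoters, and Rab3il1 was at 314 FPKM in testis, 25.9 in WAT and 88.4 in bone.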

How the data were processed

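The report rests on 1 testis library and 18 libraries of other tissues, grouped by the tissue in their titles. The authors deposited FPKM for 13 tissues and raw read counts for 6 more. Total RNA was prepared with Trizol and a column kit with DNase, per the labels' protocols. The submitters' processing notes name DESeq2 without a version or role. The aligner, the counting rule, the strandedness and the build used for the reads do not appear in labels or headers and were not given in the sources used here. Whole reads were recovered from the deposited FPKM with the library total and a gene length, which equalled the annotated mean transcript length for 97.1% of 38072 genes with a value, and by a common denominator for 1096 genes (tolerance 0.01 read). At least 99.99% of each library's reads were recovered. The counts of 6 tissues were turned into FPKM with the same lengths. Of the identifiers, 99.93% were in GENCODE M21 (GRCm38), and coordinates are those of the deposited table.

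With 1 library per tissue no p-values were computed. Ratios to the highest other tissue have 0.1 FPKM added, and folds do not. Named genes were members of the lists, the 12 with the largest ratio at 10 FPKM or more, the 12 highest, the 5 nearest the limit on each side, the 12 lowest, 4 shared genes for each of 3 partner tissues and the 6 highest noncoding genes, and not all are named. The members and lists were chosen with earlier results of these data known. Only the 4-fold rule was run on simulated reads, with some genes raised in testis. The rules for tau, shared and lowest genes were not simulated. The recovery of reads was simulated with known lengths only. Other pseudocounts, levels, folds, scalings and sets of tissues were tried. A floor of 3 reads in the testis library is 0.177 reads per 1000000. Software was pandas 2.3.3 with numpy 2.4.6, intervals from scipy 1.17.1 and plots from matplotlib 3.10.9, under Python 3.11.15. Promoters are from RefSeq (GRCm38.p6).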

Additional observations from a re-analysis of the deposited data

How the results depend on the processing

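No paired analysis was possible because each tissue has 1 library. The count of testis-enriched genes (4467) stayed within 1.5 times under all alternatives, from 3210 with a pseudocount of 1 to 5480 at 2-fold, except that it was 2955 at a testis level of 5 FPKM or more. It was 5239 under median-of-ratios size factors, 4055 under upper quartile scaling, 3685 with the lower bound of the interval at 4, and 4485 to 4625 with each other tissue left out in turn. The X-linked share (8.11%) was 9.70% with no filter on low values, 6.19% at 5 FPKM or more, 6.73% at 2-fold and 9.44% at 10-fold, and 7.70 to 8.27% with each tissue left out. The 11 germline lists held 185 enriched of 244 genes and 167 to 195 under the alternatives. The lists that moved by over 1.5 times were X-linked germline (15 to 9 at 5 FPKM or more), Leydig (11 to 7 at 10-fold), Y-linked germline (4 to 2 with a pseudocount of 1 and 1 at 5 FPKM or more), epididymis (0 to 1 at 2-fold and without WAT) and adrenal cortex (1 to 0 under 7 settings). Genes lowest in testis (204) were 128 with a pseudocount of 1, 776 at 2-fold, 109 under size factors and 423 under upper quartile scaling, and 206 to 285 with each tissue left out. The tau genes (3960) were 2290 at 5 FPKM or more. Size factors moved the median log2 ratio of all genes to the highest other tissue from -0.89 to -0.35, and upper quartile scaling to -1.19. Depth limits the genes with few reads: a count of 0 in the testis library allows 0.177 reads per 1000000.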
